A study of Mus musculus with 4 samples.

Results

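The p53 pathway genes described here are a list of 32 genes: the core regulators of p53 and a broad set of genes that p53 is known to activate. A member was analysed where a probe set named that gene alone, and where several did, the one brightest on average was taken. By this rule 30 of the 32 members were analysed, among 18193 genes in all. Trp53, which encodes p53, and Gdf15, a secreted stress cytokine, were not analysed here.

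The transcription factor p53 is made all the time and held low by Mdm2, a ubiquitin ligase that marks it for destruction, and by the related protein Mdm4, which masks its activation domain. DNA damage, oncogene activity or ribosome stress release p53 from both. It then switches on genes that halt the cell cycle, repair DNA, curb growth or kill the cell, and it switches on Mdm2, which closes the loop. In haematopoietic stem cells (HSCs), the blood-forming cells of the bone marrow, p53 is known to favour quiescence and to remove damaged cells. Because p53 is governed largely at the protein level, RNA amounts of its targets are a common way to read its activity.

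The cells came from the bone marrow of transgenic mice in which N-myc, a transcription factor of the MYC family, is fused to the red fluorescent protein mCherry. Both groups carry this fusion, were neither cultured nor treated, and were sorted for absence of lineage markers and CD48 and for presence of Sca-1, Kit and CD150. Cells with a strong mCherry signal form the N-myc high fraction and those with a weak one the N-myc low fraction. The sources used here do not give strain, age, the promoter of the transgene or whether animals were pooled. Each group has 2 arrays, from mouse 1 and mouse 2, made from 5 ng of amplified total RNA, and values below follow that order. The p-values measure the spread between these arrays.

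The labels were checked before the comparison. Mycn had log2 intensities of 10.48 and 10.39 in N-myc high HSCs against 9.44 and 9.65 in N-myc low HSCs, so the sort gene stood apart in the direction of its labels (difference 0.89, limma adjusted p = 0.762). Whether its probe set also reads the fusion transcript was not tested. Xist, transcribed from the inactive X chromosome of females, was at 11.38 and 11.10 in the arrays of mouse 1 and at 3.84 and 3.70 in those of mouse 2, while the Y-linked Eif2s3y was at 8.53 and 8.43 and at 9.40 and 9.67. The arrays of mouse 1 thus carry both transcripts, and whether that label stands for 1 animal was not tested. Of 14 HSC markers 12 were analysed, none in the dimmer 50% of probe sets. Both N-myc high arrays were above both N-myc low arrays for 5 of them (Procr, Mecom, Hlf, Fgd5 and Mllt3) and below for 1 (Gata2), where 15.6% and 20.8% of all genes were. Of the genes that mark progenitors, Cd48, which the sort selects against, was at 7.42 and 7.11 against 9.89 and 9.07 and Cd34 had a difference of -0.55, while Flt3 was at 8.18 and 8.28 against 7.49 and 6.56. The neutrophil genes S100a8 and S100a9 were at 13.22 to 13.69 on all 4 arrays. The summed signal of the marker lists, on a log2 scale, was higher in both N-myc high arrays for macrophages (9.06 to 9.30 against 8.003 to 8.04), dendritic cells (10.55 to 10.57 against 8.90 to 9.05) and B cells (8.41 to 8.81 against 7.74 to 8.0004). Few genes carry these sums. Among macrophage genes C1qb had a difference of 2.66 and the other 5 lay between -0.14 and 0.32. Among dendritic cell genes Cd74 (2.15) and H2-Aa (1.42) stood apart, with Siglech at -0.05 and Itgax at 0.01, and among B cell genes Vpreb1 (2.45) and Cd79a (0.65), with Cd79b at -0.21 and Ms4a1 at -0.25. The summed signal was lower in both N-myc high arrays for neutrophils (14.72 to 14.86 against 14.98 to 15.00), red cell precursors (8.42 to 8.75 against 9.22 to 9.38), mast cells (6.13 to 6.62 against 7.42 to 7.46) and T and NK cells (8.84 to 8.97 against 9.36 to 9.63), and overlapped for endothelial cells. For mast cells Cpa3 (-1.59) and Ms4a2 (-0.80) were lower and Mcpt8 was at 0.28, and for T and NK cells only Nkg7 (-0.77) stood apart, with Cd3e, Cd3g, Cd4 and Cd8a dim and between -0.01 and 0.23. The part of these other cell types in the p53 pathway values was not tested. In such bulk samples fewer cells of a type and less RNA per cell cannot be told apart.

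The promoters of the members were searched for the DNA element of p53, which is built from a pair of 10-base arms. The list was made largely of genes that p53 is known to activate. A higher share of such arms among them thus goes with how the list was made and is no independent finding. RefSeq promoter windows of 300 bases (assembly GRCm38.p6) were found for 25 of the 32 members. They span 250 bases before and 50 after the start of transcription, and arms outside them were not searched. The p53 consensus decamer, a single such arm that reads the same on both strands, occurred in the windows of 8 of these 25 members (32%) and of 2582 of 27025 genes overall (9.55%). Of the members analysed on the arrays, 7 of 23 with a window held it (30.4%). These 7 are shown so that the letters can be read beside the array values, whose differences have both signs. The capitals mark the decamer.

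Mdm2: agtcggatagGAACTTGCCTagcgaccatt
Aen: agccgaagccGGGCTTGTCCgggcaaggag
Ccng1: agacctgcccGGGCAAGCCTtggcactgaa
Ei24: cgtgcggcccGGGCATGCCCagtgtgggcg
Gadd45a: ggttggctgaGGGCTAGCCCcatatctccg
Polk: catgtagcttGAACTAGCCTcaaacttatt
Sesn1: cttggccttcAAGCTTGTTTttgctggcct

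The stretch of Mdm2 lies at chr10:117710925-117710954 on the minus strand, that of Aen at chr7:78895927-78895956 on the plus strand and that of Ccng1 at chr11:40755452-40755481 on the minus strand. Those of Ei24 (chr9:36797325-36797354), Gadd45a (chr6:67037428-67037457) and Polk (chr13:96519399-96519428) are on the minus strand, and that of Sesn1 (chr10:41887256-41887285) is on the plus strand. A match of letters is a description and does not show that p53 binds there. The 7 members with the decamer had a median difference of 0.15 on the log2 scale (N-myc high minus N-myc low), 5 above 0 and 2 below, and the 16 with a window that lacks it had a median of 0.07. The arrays of the groups were apart for 3 of the 7: Polk and Sesn1 lay higher in N-myc high, where 15.6% of all genes did, and Aen lay lower, where 20.8% did.

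As a set, the p53 pathway genes showed no common direction when N-myc high HSCs were set against N-myc low HSCs. No member passed a Benjamini-Hochberg adjusted p under 0.05 in limma, a linear model that shares the estimate of spread between genes, and neither did any other gene (0% of 18193, lowest adjusted p = 0.671). The adjusted p of the members ran from 0.762 to 0.997. Without adjustment, 2 of 30 members (6.67%) were under 0.05, Perp and Aen, against 6.31% of all genes. Both were lower in N-myc high, where 2.78% of all genes were, and 0 members were higher, where 3.53% of all genes were. These shares are near the background and say nothing particular about the members.

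The groups were apart, with both N-myc high arrays on the upper side, for 7 members (23.3%), and with both on the lower side for 5 (16.7%), against 15.6% and 20.8% of all genes. The median difference over the 30 members was 0.07 on the log2 scale, with 19 above 0 and 11 below, and the median of all genes was -0.03. Within the mice the members' median was 0.19 in mouse 1 and 0.01 in mouse 2, against -0.06 and 0.00 for all genes. The median size of a member's difference, whatever its sign, was 0.29 against 0.20 for all genes, beside a median standard error (SE) of 0.27 against 0.23. A difference of at least 1.5-fold was seen for 6 members (20%) and 12.3% of all genes. The members thus spread a little wider than genes in general, and their standard errors did as well. Of the 30 members 8 had a mean in the dimmer 50% of probe sets, compared with 45.5% of all genes.

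**Figure D1:**
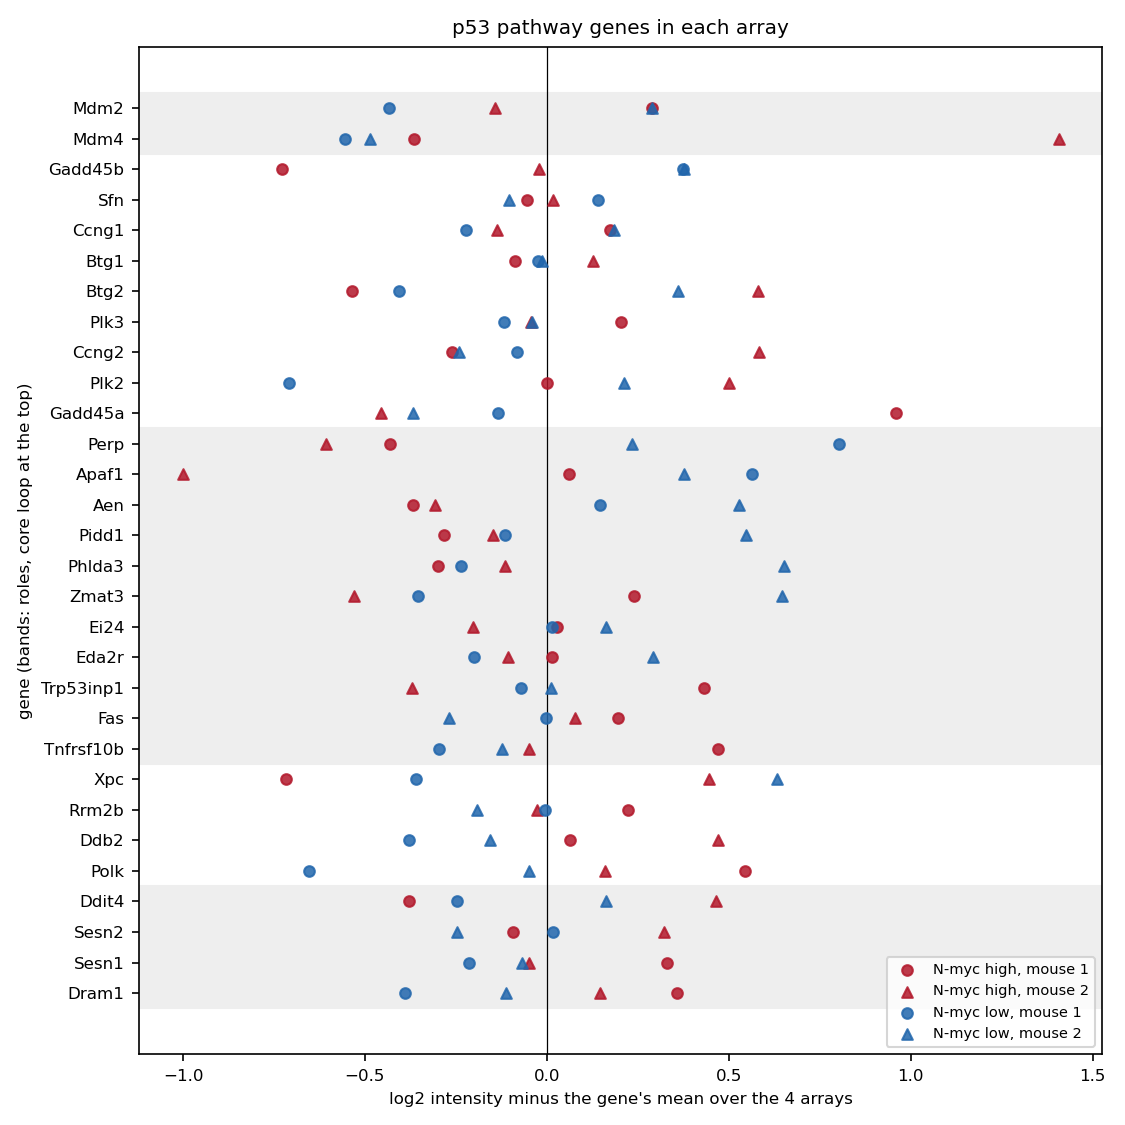
Log2 intensity of each p53 pathway gene in the 4 arrays, as the distance from that gene's mean over the arrays; red marks N-myc high, blue N-myc low, circles mouse 1 and triangles mouse 2, and the bands follow the roles from the core loop at the top to stress and metabolism. Perp, Apaf1, Aen and Pidd1 have both blue points to the right of both red ones, Polk, Ddb2 and Dram1 the reverse, and the single far point of Mdm4 is the N-myc high array of mouse 2.

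The p53 control loop gave no steady difference. Mdm2, the ligase that degrades p53 and is itself a p53 target, was at 8.93 and 8.50 in N-myc high and at 8.20 and 8.93 in N-myc low HSCs. The groups overlap fully, and the mice run in opposite directions, by 0.72 in mouse 1 and -0.43 in mouse 2. The mean difference was 0.15 with a 95% interval of -0.73 to 1.02 (limma, adjusted p = 0.954), so a change of up to about that size in either direction could not be told from none. The other probe sets of Mdm2 gave -0.14 and -0.16.

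Mdm4, the partner of Mdm2 that blocks p53 without degrading it, was at 8.80 and 10.58 in N-myc high and at 8.62 and 8.68 in N-myc low HSCs. The groups are apart, but 1 array, N-myc high of mouse 2, makes most of the distance. The difference was 1.04 (SE 0.615, limma adjusted p = 0.811), and it was 0.15 without that array. The next brightest Mdm4 probe set read 8.79 and 8.86 against 8.82 and 8.92, a difference of -0.05, and the remaining pair gave 0.00 and -0.32. The high value in mouse 2 was therefore seen by a single probe set.

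Among the 11 members tied to cell death, 5 were lower in N-myc high in both mice, 2 were higher in both and 4 differed in sign between the mice, with 0 past the adjusted threshold. Over all genes 53% shared a sign between the mice, and no such group of members was tested against that share. The 5 were Perp, Aen, Apaf1, Pidd1 and Phlda3, and the 2 were Tnfrsf10b and Fas. Perp, a membrane protein of cell junctions that p53 induces during apoptosis, was at 4.59 and 4.41 in N-myc high and at 5.82 and 5.25 in N-myc low HSCs. Both N-myc high arrays lie clearly below, although the gene is dim, with its mean at the 40.1st percentile of probe sets. The difference was -1.04 (SE 0.262, limma adjusted p = 0.762), the smallest p of the set, and it stayed between -0.75 and -1.32 with any 1 array left out. Perp has 1 probe set.

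Aen, a nuclease that p53 induces and that helps to cut DNA in dying cells, was at 8.27 and 8.33 in N-myc high and at 8.79 and 9.17 in N-myc low HSCs. The N-myc high arrays agree closely and lie below both N-myc low arrays. The difference was -0.67 (SE 0.215, limma adjusted p = 0.779). Its second probe set gave -0.42, lower in both mice too, while the remaining dim pair gave 0.08 and 0.25.

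Apaf1, the scaffold of the apoptosome that activates caspase-9, was at 7.22 and 6.16 in N-myc high and at 7.73 and 7.54 in N-myc low HSCs. The groups are apart, with the N-myc high array of mouse 2 far below the rest. Its difference was -0.94 (SE 0.398, limma adjusted p = 0.791), and -0.41 without that array. The other Apaf1 probe set separated the groups the opposite way, at 7.51 and 7.21 against 6.95 and 6.68, a difference of 0.55. The direction for Apaf1 therefore depends on the probe set.

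Pidd1, a death-domain protein that activates caspase-2, was at 7.48 and 7.61 in N-myc high and at 7.65 and 8.31 in N-myc low HSCs. The groups do not overlap, but N-myc high of mouse 2 and N-myc low of mouse 1 are only a small step apart. The difference was -0.43 (SE 0.283), and -0.10 without N-myc low of mouse 2. Phlda3, which restrains the survival kinase Akt, was lower in both mice by -0.06 and -0.77, and its groups overlap.

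The members tied to cell death hold 3 receptor genes, of which 2 were higher in N-myc high in both mice on the probe sets used. Tnfrsf10b, the receptor for the ligand TRAIL, was at 6.03 and 5.51 in N-myc high and at 5.27 and 5.44 in N-myc low HSCs. Fas, the receptor for Fas ligand, was at 4.50 and 4.38 against 4.30 and 4.04. On the probe sets used, the N-myc high arrays lie above for both genes, and both are among the dim members. The other Tnfrsf10b probe set gave -0.40 in mouse 1 and 0.94 in mouse 2, with groups that overlap. Fas has 1 probe set. The differences were 0.42 (SE 0.251) for Tnfrsf10b and 0.27 (SE 0.197) for Fas, with limma adjusted p of 0.811 and 0.832. Without N-myc high of mouse 1 the difference of Tnfrsf10b was 0.16, and without N-myc low of mouse 2 that of Fas was 0.14. The remaining receptor, Eda2r, which binds ectodysplasin A2, gave 0.21 in mouse 1 and -0.40 in mouse 2, with a mean of -0.09.

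The other death genes did not separate the groups. Zmat3, an RNA-binding p53 target, gave 0.59 in mouse 1 and -1.18 in mouse 2, the widest split among these genes. Trp53inp1, a cofactor that promotes p53 activity and autophagy, gave 0.50 and -0.38, and Ei24, an endoplasmic reticulum protein, 0.01 and -0.36.

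**Figure D2:**
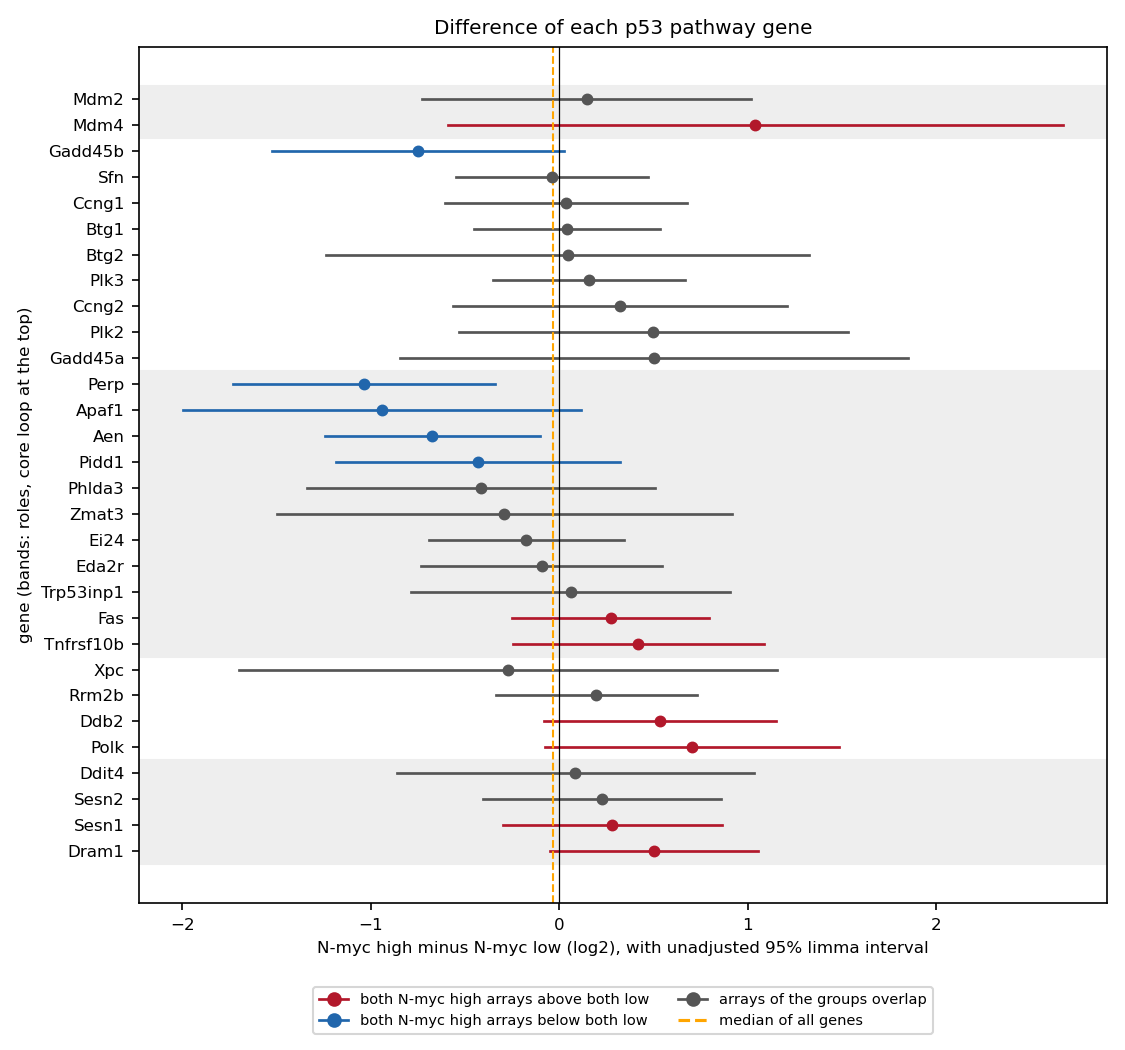
Difference of each p53 pathway gene on the log2 scale, N-myc high minus N-myc low (points), with its unadjusted 95% limma interval (lines); red and blue mark genes whose 4 arrays do not overlap between the groups, and the dashed line is the median of all genes at -0.03. The intervals of Perp and Aen end below 0, and those of the other 28 genes include 0.

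All 4 members that repair DNA or supply its building blocks had the same sign in both mice, 3 of them higher in N-myc high. Over all genes 53% shared a sign, and so small a group was not tested against that share. Polk, a DNA polymerase that copies past damaged bases, was at 6.91 and 6.52 in N-myc high and at 5.71 and 6.32 in N-myc low HSCs. Both N-myc high arrays are higher, with most of the distance in mouse 1 (1.20 against 0.21 in mouse 2). The difference was 0.70 (SE 0.294, limma adjusted p = 0.791), and the dimmer second probe set gave 0.57, higher in both mice.

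Ddb2, which finds ultraviolet lesions in DNA, was at 9.84 and 10.25 in N-myc high and at 9.40 and 9.62 in N-myc low HSCs. It is bright on every array, and the groups are apart by about the same distance in each mouse, 0.44 and 0.63. The difference was 0.53 (SE 0.231, limma adjusted p = 0.792). Its second probe set gave 0.41, with 0.02 in mouse 1 and 0.79 in mouse 2, so its groups are barely apart. Among members with several probe sets, Polk and Ddb2 are those in which every probe set separates the groups in the same direction. Rrm2b, the p53-induced subunit of ribonucleotide reductase, differed by 0.23 in mouse 1 and 0.16 in mouse 2. Its other, dimmer probe sets gave means of 0.35 (-0.59 in mouse 1 and 1.28 in mouse 2), 0.96 (1.42 and 0.51) and 0.98 (0.07 and 1.89). Xpc, the partner of Ddb2 in lesion recognition, had the other sign, -0.36 and -0.19, and it varied more between the mice than between the fractions, at 6.88 and 7.24 in mouse 1 and 8.04 and 8.23 in mouse 2.

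On the probe sets used, members that restrain the cell cycle and growth showed the least agreement between the mice, since 7 of 9 differed in sign. Of all genes 53% shared a sign, and the gap was not tested. Gadd45b, a stress protein that binds and activates a kinase upstream of p38 and JNK, was at 7.05 and 7.75 in N-myc high and at 8.15 and 8.15 in N-myc low HSCs. It was the only gene of these 9 with separate groups, both N-myc high arrays being lower. The difference was -0.75 (SE 0.291, limma adjusted p = 0.779). Its second probe set gave -0.64 and the third 0.15, the latter with opposite signs in the mice.

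Its paralog Gadd45a, the classical p53 target of the family, was at 7.78 and 6.37 against 6.69 and 6.45. Only the N-myc high array of mouse 1 stands out, and the difference of 0.50 became -0.20 without it. Plk2, a polo-like kinase that p53 induces, was at 6.49 and 6.99 against 5.79 and 6.71, higher in both mice with groups that overlap, and its difference was 0.50 (SE 0.389). That difference was 0.04 without N-myc low of mouse 1 and 0.96 without N-myc low of mouse 2, and the other, dim probe set gave -0.19. The related kinase gene Plk3 gave 0.32 in mouse 1 and 0.00 in mouse 2.

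The cyclin G genes showed how far single readings can part. Ccng1, an early p53 target that feeds back on Mdm2, gave 0.40 in mouse 1 and -0.32 in mouse 2 and a mean of 0.04. Ccng2, a cyclin linked to cell cycle exit, gave -0.18 and 0.83, with a mean of 0.32 on the probe set used and -0.96 on its other one. The antiproliferative genes Btg1 and Btg2 had means of 0.04 and 0.04 on the probe sets used. Btg1 gave -0.06 in mouse 1 and 0.14 in mouse 2. Its other probe sets gave means of 0.18 and 0.56, both higher in both mice. The other Btg2 probe set gave -0.16. Btg2 was at 7.56 and 7.69 in the arrays of mouse 1 and at 8.67 and 8.45 in those of mouse 2, and the interval of its difference by N-myc level was wide, from -1.24 to 1.33. Sfn, the 14-3-3 protein that holds cells before mitosis, gave -0.04.

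The stress and metabolism genes had 2 members higher in both mice and 2 of mixed sign, where 53% of all genes shared a sign. Dram1, a lysosomal membrane protein that p53 induces to promote autophagy, was at 5.98 and 5.76 in N-myc high and at 5.23 and 5.51 in N-myc low HSCs. Both N-myc high arrays are higher, by 0.75 in mouse 1 and 0.26 in mouse 2, at a dim level. The difference was 0.50 (SE 0.208, limma adjusted p = 0.788).

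Sesn1, a sestrin that senses amino acids and restrains the growth kinase mTORC1, was at 9.96 and 9.58 against 9.42 and 9.56. The groups are apart by a hair, since in mouse 2 the fractions differ by 0.02. Its difference was 0.28 (SE 0.219, limma adjusted p = 0.836), and 0.09 without N-myc high of mouse 1. The next brightest Sesn1 probe set gave 0.26, higher in both mice. The remaining pair gave 0.12 (0.60 in mouse 1 and -0.36 in mouse 2) and, at a dim level, 0.04 (-0.54 and 0.61). Sesn2, its paralog, gave -0.11 and 0.57 in the mice and -0.72 on its other probe set, and Ddit4, another mTORC1 inhibitor, gave -0.13 and 0.30.

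**Figure D3:**
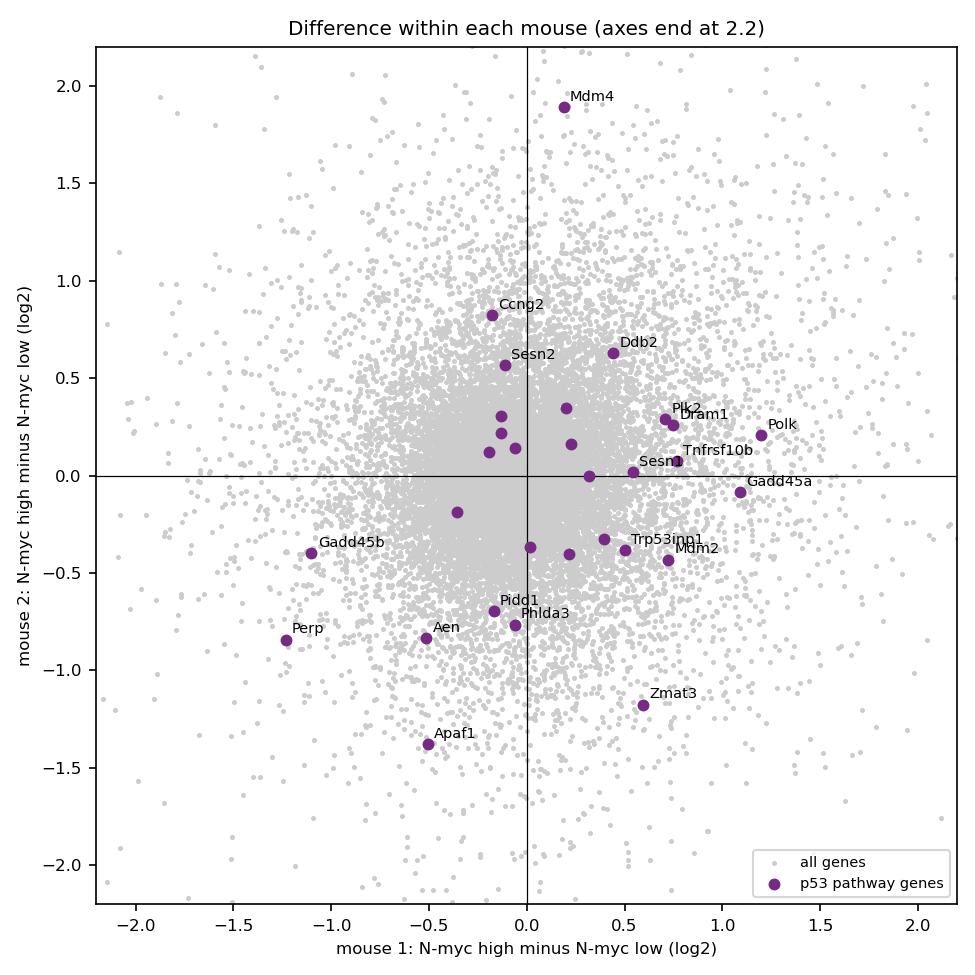
N-myc high minus N-myc low on the log2 scale within mouse 1 (horizontal axis) and mouse 2 (vertical axis), for all genes (grey; those beyond 2.2 are not drawn) and the 30 p53 pathway genes (purple; named where either value exceeds 0.45 in size). Perp, Aen, Apaf1 and Gadd45b lie in the lower left, Ddb2 and Polk in the upper right, and Zmat3 and Mdm2 in the lower right, where the mice disagree.

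Agreement between the mice was that of genes in general. Of the 30 members 9 were higher in N-myc high in both mice, 7 lower in both and 14 of opposite sign, so 53.3% shared a sign, against 53% of all genes. The difference between mouse 1 and mouse 2, averaged over the fractions, was larger than that between the fractions for 14 of 30 members (46.7%), the same share as over all genes (46.7%). The members that differed most between the mice were Xpc (-1.08, mouse 1 minus mouse 2), Btg2 (-0.94), Mdm4 (-0.92), Gadd45a (0.82) and Plk2 (-0.71). Single arrays weighed on other members too: the difference was 0.40 for Polk without N-myc low of mouse 1, 0.33 for Ddb2 without N-myc high of mouse 2 and -0.40 for Gadd45b without N-myc high of mouse 1. The sign turned for Mdm2 (-0.22 without N-myc low of mouse 1), Phlda3 (0.03 without N-myc low of mouse 2) and Xpc (0.31 without N-myc high of mouse 1). It also turned with 1 array left out for Ccng1, Ccng2, Gadd45a, Trp53inp1, Btg1, Btg2, Ddit4, Zmat3, Sfn and Eda2r. With the mouse as a replicate block, 0 members passed the adjusted threshold. Perp, Aen and Apaf1 were under an unadjusted 0.05, 10% of the members against 6.04% of all genes.

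Probe sets of a gene often disagreed. Of the 30 members 17 had several probe sets, and for 10 of these another probe set had the opposite sign, leaving 7 in which no other probe set opposed the one used. With the mean of all probe sets of a gene, the difference of Mdm2 was -0.05, of Mdm4 0.17, of Apaf1 -0.20 and of Aen -0.19. The sign of Mdm2, Ccng1, Ccng2, Sesn2 and Btg2 turned with that mean.

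**Figure D4:**
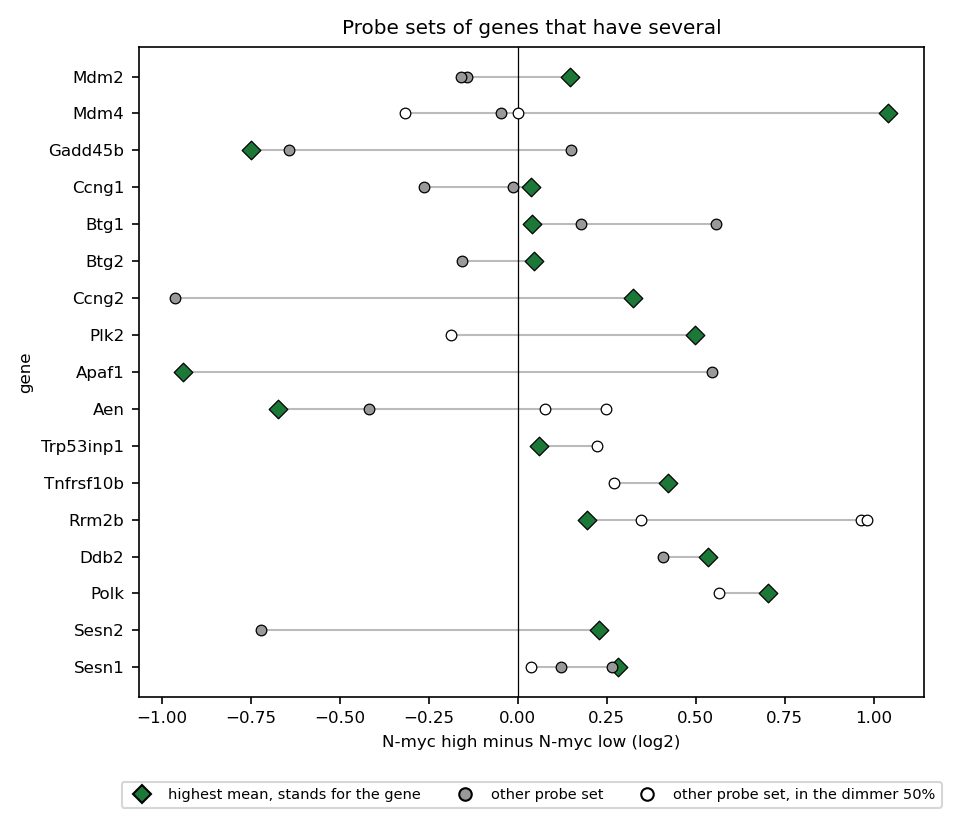
N-myc high minus N-myc low on the log2 scale for every probe set of the 17 p53 pathway genes with more than 1; green diamonds mark the probe set that stands for the gene, grey circles other probe sets and white circles those in the dimmer 50%. The probe sets of Apaf1, Ccng2 and Sesn2 lie on both sides of 0, and those of Ddb2, Polk, Rrm2b and Sesn1 lie on 1 side.

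Further genes of the pathway were read from a pair of lists. Of 22 regulators and relatives of p53, 21 were analysed and 0 passed the adjusted threshold, with a median difference of -0.12 and groups apart for 3 higher and 5 lower (15.6% and 20.8% of all genes). Usp7, a protease that removes ubiquitin from p53 and Mdm2, was at 10.78 and 10.90 against 10.13 and 10.27. Its difference of 0.64 (SE 0.183, limma adjusted p = 0.769) was about equal in the mice, 0.65 and 0.62. Usp7 has 7 probe sets, and only the one brightest on average is given here. Sirt1, a deacetylase of p53, gave 0.54, Cdkn2a, whose Arf product blocks Mdm2, -0.62 at a dim level, and Rchy1, another ubiquitin ligase of p53, -0.40. Huwe1, the ubiquitin ligase that the series is named for, which acts on N-myc and p53, gave -0.12 (SE 0.175).

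Of 30 genes listed as further p53 targets, 24 were analysed and 0 passed, with a median of 0.08. The groups were apart for 6 higher and 3 lower, beside the same shares of all genes (15.6% and 20.8%). Whether p53 acts on each of these genes was not tested. Ephx1, an epoxide hydrolase, gave 0.85 at a dim level. Wrap53, a telomerase and Cajal body protein, gave 0.89, and Ptprv, a tyrosine phosphatase, 0.82. Each of these genes was higher in both mice. Bbc3, which encodes the cell death protein PUMA, was dim, at 5.46 and 5.62 against 5.999 and 5.98, a difference of -0.45 (SE 0.181). Cdkn1a, which encodes the cell cycle inhibitor p21 and is a widely used readout of p53, was dim, at 5.38 and 6.64 against 5.46 and 5.42. Only N-myc high of mouse 2 stands out, and the difference was 0.57 (SE 0.454, limma adjusted p = 0.841). Bax was not analysed here.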

How the data were processed

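RNA of sorted HSCs was measured on 4 Affymetrix mouse arrays. The authors deposited log2 probe set intensities made with RMA, and the submitters' processing notes also name affy and limma; their versions, the chip definition and any filters are not given in the sources read here. RMA equalises the arrays' distributions, so a shift of all genes is removed, and with few arrays the precision is limited. Of 45101 probe sets, 34945 named 1 gene in the platform annotation, 932 named several and 9160 none; 34741 were matched by Entrez number to a RefSeq gene table (GRCm38.p6). Control probe sets were left out.

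The groups were fitted in R 4.3.3 with limma 3.58.1 (lmFit, eBayes) over 18193 genes, and tested on simulated data. With 2 against 2 arrays an exact permutation test cannot go below p = 0.333. The titles name the mouse of each array, which pairs the arrays; deviations of same-numbered arrays correlated at r = 0.0492 across genes. The members, lists, roles and tests were chosen with earlier results of these data known. Array values were given for Mdm2, Mdm4 and the 12 members with the smallest unadjusted p, and also for Gadd45a, Plk2, Xpc and Btg2. The other members were given by their differences alone, also where mice or probe sets disagree. From the lists the 4 genes with the smallest p were named, with Cdkn1a, Bax, Huwe1 and Mycn. Other genes were named after their values were seen.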

Additional observations from a re-analysis of the deposited data

How the results depend on the processing

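No member and no gene passed the adjusted threshold in limma under any alternative tried: the mouse as a replicate block, the mean of a gene's probe sets, no probe sets with cross-reacting suffixes, no dimmer genes, another prior, centred arrays, and each array left out (where the lone array is taken to vary like the others). The lowest adjusted p of a member over these was 0.544. The median of the members ran from -0.04 (mean of probe sets) to 0.20 (without N-myc low of mouse 2). Leaving out genes in the dimmer 50% of probe sets kept 22 members. Of these 1 was under an unadjusted 0.05, as were 665 genes in all (6.70%), out of fewer tested. Both N-myc high arrays lay higher for 4 of the 22, where 19.1% of all genes kept did. Without probe sets of cross-reacting suffix 4 members lay higher in place of 7 (15.5% of all genes in place of 15.6%). The difference was then -0.05 for Mdm4, 0.12 for Sesn1 and 0.27 for Tnfrsf10b. With 1 array left out, 10 to 13 members lay apart higher, where 28.1% to 32.7% of all genes did. Between 6 and 12 lay lower, where 34.3% to 38.8% of all genes did, since fewer arrays overlap less. The replicate block changed no adjusted call. It gave 3 members (10%) under an unadjusted 0.05 in place of 2 (6.67%), and 6.04% of all genes in place of 6.31%. Of the 30 members, 15 kept the sign of their difference under every alternative that could be run for them, Perp, Aen, Polk, Ddb2, Dram1 and Gadd45b among them, and 15 did not. Depth has no counterpart on these arrays: no background was measured for the 8 dim members.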
